A study of Macaca mulatta with 24 samples.

Results

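The magnocellular layers of the lateral geniculate nucleus (LGN), the thalamic relay between the retina and the visual cortex, were compared with and without input from a deprived eye. The arrays were chosen by their titles: those of layers 1 and 2, which are 8 of the 24 arrays of the series. Each array held 1 layer of 1 LGN of a rhesus macaque (Macaca mulatta), captured by laser from toluidine blue stained sections, pooled over several sections of that layer, amplified in 2 rounds and hybridised to the Rhesus Macaque Genome Array. The left eye of each of the 2 animals was deprived from birth, by an opaque contact lens in the animal studied at 2 months and by tarsorrhaphy, in which the lids are sewn shut, in the animal studied at 4 months. Both LGNs of each animal were used, which gives 4 LGNs. In the LGN ipsilateral to the deprived eye layer 2 received the deprived input and layer 1 did not, and in the contralateral LGN layer 1 was deprived and layer 2 was not, so each LGN gave 1 deprived and 1 nondeprived magnocellular array. Both animals were infants raised by hand, and the cell-poor koniocellular zones between the layers were not among the captured layers. Every nondeprived layer came from an animal whose other eye was deprived, and arrays of animals with normal vision were not analysed here. Each duration was 1 animal and 1 method of closing the eye, and these cannot be told apart. Values are given below in the order ipsilateral at 2 months, contralateral at 2 months, ipsilateral at 4 months and contralateral at 4 months, and p-values measure the spread between these LGNs and not between animals. The parvocellular test, the test of the class difference and the shared spread count several layers of the same LGN as replicates, so their p-values rest largely on the spread between layers within 4 LGNs of 2 animals and are too small to speak for animals.

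Magnocellular relay neurons are large cells that receive input from parasol ganglion cells and carry fast, achromatic, low-contrast information to the visual cortex. Parvocellular neurons in the dorsal layers carry fine detail and red-green colour. Each layer is driven by 1 eye, so closing an eye early in life takes patterned vision from some layers and leaves their neighbours intact, and the relay cells of deprived layers are known to shrink. The model is used for amblyopia, the loss of vision in an eye that had poor input during the critical period. A captured layer also holds local GABAergic interneurons, astrocytes, oligodendrocytes, microglia and vessels, and in such samples fewer cells of a type and less RNA per cell cannot be told apart.

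Signals in the deprived magnocellular layers were higher for COL13A1, a transmembrane collagen, AGT, the precursor of the angiotensin peptides, PIK3R1, a regulatory subunit of phosphatidylinositol 3-kinase, and the secreted protein TAFA1. They were lower for SPON2, a secreted matrix protein, by 4.80-fold. These genes were picked partly for keeping 1 direction in 4 of 4 LGNs, so that agreement is no support. Of the 37623 probe sets, 10.6% kept an upward and 4.82% a downward direction in every LGN. None of them passed an adjusted p of 0.05 in limma (0% called; smallest adjusted p = 0.179). COL13A1 was higher in deprived layers by 7.36-fold, AGT by 4.17-fold, PIK3R1 by 3.74-fold and TAFA1 by 4.97-fold. Genes of cholesterol synthesis read mostly higher in deprived layers, and genes of oxidative phosphorylation mostly lower, beside 54.7% higher among all genes with 1 symbol. The median of the oxidative phosphorylation genes had the other sign, 0.16, in the contralateral LGN at 4 months.

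One array stood apart from the others, that of ipsilateral layer 2 at 2 months, which is deprived. Its GAPDH signal at the 3′ end was 50.8 times that at the 5′ end, a ratio that rises as RNA is degraded or shortened in amplification, against 1.97 to 14.3 in the other 23 arrays. Its mean correlation with the other arrays (log2 signals, Pearson) was 0.811 against 0.885 to 0.919, and 57.1% of its probe sets had a signal of 100 or more against 40.6% to 53.0%. The second highest ratio, 14.3, belonged to contralateral layer 2 at 2 months, which is nondeprived and whose deprived neighbour had 7.31. In the animal deprived for 4 months the deprived and nondeprived layers had ratios of 8.91 and 4.97 on the ipsilateral side, and of 3.95 and 3.74 on the contralateral side. The deprived layer therefore had the higher ratio in 3 of 4 LGNs, and with this ratio in the limma model as a covariate 1 probe set was called higher and 1 lower, the latter being SPON2. Values without the array, whose LGN then adds nothing to the paired difference, are given as those of the 3 remaining LGNs. In these LGNs layer number and deprivation are no longer balanced, since layer 2 was deprived only on the ipsilateral side at 4 months. A difference between layers 1 and 2 can thus enter those values.

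**Figure D1:**
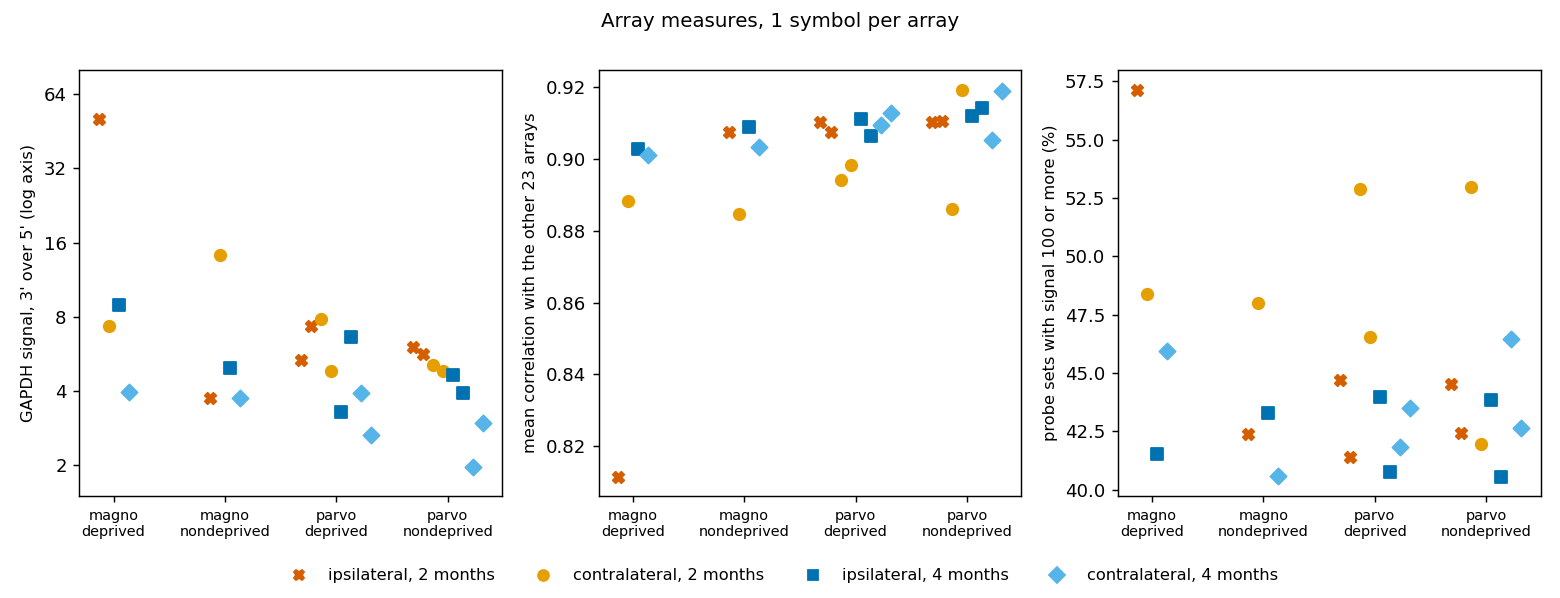
GAPDH 3′ to 5′ signal ratio (log axis), mean correlation with the other 23 arrays, and percent of probe sets with a signal of 100 or more, 1 symbol for each of the 24 arrays, by layer class and deprivation. One array, the deprived ipsilateral layer 2 at 2 months, has a GAPDH 3′ to 5′ ratio of 50.8 and a mean correlation with the other arrays of 0.811, and the other 23 lie between 1.97 and 14.3 and between 0.885 and 0.919.

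The layers were checked against markers of magnocellular relay neurons, of which 7 of 9 had a named probe set. The heavy neurofilament NEFH, the potassium channel KCNA1, SFRP2 and IL15RA read higher in the magnocellular than in the parvocellular layers of 4 of 4 LGNs, by 0.66, 0.93, 1.86 and 0.43 on the log2 scale. CRYAB, a small heat shock protein on the same list, read lower in 4 of 4 LGNs (log2 difference -0.58), and PPP2R2C and EEF1A2 did not keep a direction. SFRP2 was dim, with a mean signal of 32.2 in the magnocellular arrays. Of the parvocellular markers, FOXP2 was lower in magnocellular layers in 3 of 4 LGNs, with a mean log2 difference of -0.06, and the brightest TCF7L2 probe set was lower in 2 of 4, with -0.0032. The label magnocellular thus had 4 of its 7 measured markers with it and 1 against it. Between deprived and nondeprived magnocellular layers NEFH differed by 0.12 (SE 0.33, unadjusted p = 0.714), and no measured marker of the list kept 1 direction in all 4 LGNs.

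The paired test over the 8 arrays left 3 residual degrees of freedom. In limma, with the LGN as a block, 0 probe sets were called higher and 0 lower, while 1491 were higher (3.96% of those tested) and 647 lower (1.72%) at an unadjusted p under 0.05. Without the array that stood apart the counts were again 0 and 0 (0% called), with 1358 and 908 at an unadjusted p under 0.05 and a smallest adjusted p of 0.127, for SPON2. When the 16 parvocellular arrays were added only to share their estimate of the spread, 248 probe sets were called higher (0.659%) and 147 lower (0.391%) in deprived magnocellular layers. An exact sign permutation over 4 LGNs cannot go below a two-sided p of 0.125, so no single value could pass by that route. The log2 ratios of pairs of LGNs, over 37623 probe sets, correlated between -0.22 (the 2 LGNs of the animal deprived for 2 months) and 0.20 (ipsilateral at 2 months with contralateral at 4 months), and the LGNs share animals, the platform and the amplification.

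The study asked for a mean difference of at least 1.7-fold together with a change call by its array software in each of the 4 comparisons. Here the sign of each ratio stood in place of that call, so the version below is a rule of size with no test. With a mean ratio of at least 1.7-fold and 4 of 4 LGNs in 1 direction, 2095 probe sets were higher in deprived layers (5.57%) and 487 were lower (1.29%). Of these, 1147 and 174 had a mean signal under 100, near the floor of the array. The share that was higher, 81.1%, depended on the scaling, with 56.9% after quantile normalisation, 41.8% when each array was scaled to the same median, and 63.9% in the 3 LGNs without the array that stood apart. Under the deposited scaling the median log2 difference of all probe sets tested was itself 0.13, and 0.05 without that array, so a small positive difference is close to the shift of all genes.

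The genes below are the 10 in each direction that had the smallest unadjusted p among probe sets with 1 gene symbol, 1 direction in 4 of 4 LGNs and, in the group that was higher, a mean signal of 100 or more. The p-values that chose them are given as a description. They were chosen for small p and 1 direction, so that the groups of most do not overlap is part of the choice. Of all 37623 probe sets tested, the groups did not overlap with the deprived layers higher for 2.78% and with the deprived layers lower for 1.29%. Where a gene had other probe sets that read differently, this is stated.

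COL13A1, type XIII collagen, sits in the plasma membrane at adhesion sites and at the neuromuscular junction. Its signals were 3012, 1928, 393 and 181 in the deprived layers and 194, 184, 79.2 and 49.6 in the nondeprived layers of the 4 LGNs. Every deprived layer was above its own nondeprived neighbour, although the lowest deprived value, in the contralateral LGN at 4 months, lay below the nondeprived values at 2 months. The log2 difference was 2.88 (SE 0.41, unadjusted p = 2.79e-05, adjusted p = 0.398) and was 2.52 without the array that stood apart. A second COL13A1 probe set read 1.72 (SE 0.87, unadjusted p = 0.0733), higher in 3 of 4 LGNs.

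ADAMTS9, a secreted protease that cuts the proteoglycans versican and aggrecan, gave 2313, 2242, 5468 and 1668 in deprived layers. Its nondeprived signals were 933, 966, 1518 and 825, all below the lowest deprived one. The log2 difference was 1.35 (SE 0.26, unadjusted p = 4.10e-04, adjusted p = 0.836), and its second probe set read 0.57 (SE 0.33). DSEL, an enzyme related to the epimerase of dermatan sulfate chains, gave 1083, 1223, 1527 and 774 against 555, 381, 438 and 221. The groups did not overlap, and the log2 difference was 1.56 (SE 0.30, unadjusted p = 3.03e-04, adjusted p = 0.836). GALNT7, which starts or extends mucin-type O-glycans, gave 792, 948, 994 and 654 in deprived and 222, 359, 439.5 and 288 in nondeprived layers. These too were apart (1.40, SE 0.30, unadjusted p = 7.37e-04), while a dimmer GALNT7 probe set read -0.06.

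AGT, angiotensinogen, is made in the brain mostly by astrocytes. Its deprived signals were 1492, 1316, 1755 and 1010.5, and its nondeprived ones 290, 500.2, 295 and 269. The deprived layers were all above the highest nondeprived layer, and the log2 difference was 2.06 (SE 0.31, unadjusted p = 4.35e-05, adjusted p = 0.398), or 1.96 in the 3 LGNs without the array that stood apart. PIK3R1 encodes the p85 alpha subunit that couples receptors to phosphatidylinositol 3-kinase. It gave 577, 1202, 1910.2 and 1774 in deprived and 201, 359.6, 479 and 346 in nondeprived layers. The groups were again apart, with a log2 difference of 1.90 (SE 0.29, unadjusted p = 5.48e-05, adjusted p = 0.398). Its 3 other probe sets read 0.53, 0.64 and 0.77 with SEs of 0.65, 0.29 and 0.69, each higher in 3 of 4 LGNs.

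TAFA1, a chemokine-like secreted peptide of brain neurons, gave 189, 459, 412 and 378 in deprived and 42.3, 143, 75.1 and 48.5 in nondeprived layers. No value of one group reached the other. The log2 difference was 2.31 (SE 0.40, unadjusted p = 1.55e-04, adjusted p = 0.646), with 3 of the 4 nondeprived signals under 100, and 2.24 when signals under 50 were set to 50. ZNF184, a zinc finger protein, gave 643, 647, 1295 and 714 against 167, 291, 337 and 275, with a log2 difference of 1.61 (SE 0.31, unadjusted p = 3.71e-04). GDPD2, a glycerophosphodiester phosphodiesterase of the cell surface, gave 692, 558, 378 and 357 against 199, 116, 158 and 117, with 1.74 (SE 0.34, unadjusted p = 4.44e-04). Neither gene overlapped between the groups. The probe set that the study calls CES1, a carboxylesterase that cleaves drugs and lipid esters, and that the platform table names LOC707412, gave 2584, 1644, 1506 and 1521 against 1029, 836, 536 and 626. Its log2 difference was 1.27 (SE 0.26, unadjusted p = 6.06e-04), and its lowest deprived value was above its highest nondeprived one.

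Among the lower genes, SPON2, a secreted matrix protein of the F-spondin family, stood first. Its deprived signals were 1126, 381, 199.6 and 315 and its nondeprived signals 1794, 2336, 1987 and 1725. The smallest gap was in the ipsilateral LGN at 2 months, whose deprived array is the one that stood apart. The log2 difference was -2.26 (SE 0.40, unadjusted p = 1.79e-04, adjusted p = 0.674) and became -2.80 (adjusted p = 0.127) in the other 3 LGNs. NDST4, which places sulfate groups on heparan sulfate, gave 500, 458, 465 and 271 in deprived and 2288, 1046, 759 and 1368 in nondeprived layers. Its groups did not overlap, and the log2 difference was -1.61 (SE 0.34, unadjusted p = 7.68e-04).

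CUTL1, the older symbol of the homeobox transcription factor CUX1, gave 745, 1272, 725 and 1427 in deprived and 2789, 3794, 6095 and 1902 in nondeprived layers, a log2 difference of -1.74 (SE 0.38, unadjusted p = 9.26e-04). The narrowest pair was the contralateral LGN at 4 months. ASAH2, a ceramidase that works at neutral pH, gave 170.3, 213, 267 and 241 against 663, 666, 405 and 708, with -1.44 (SE 0.34, unadjusted p = 0.00164). Its second, dimmer probe set read -1.43. FGR, a Src-family kinase of myeloid cells, gave 247, 173, 41.5 and 105 against 645, 493, 413 and 201. FGR was lower in each LGN, although the groups overlapped, with a log2 difference of -1.79 (SE 0.44, unadjusted p = 0.00215). TMEM41A, a membrane protein, gave 1051, 1352, 1269 and 1299.9 against 2673, 2244, 2559.6 and 2892, a difference of -1.06 (SE 0.25, unadjusted p = 0.00176), with -0.69 for its other probe set.

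For 3 lower genes the named probe set was not followed by the gene's others. AP1G1, the gamma subunit of the AP-1 clathrin adaptor, gave 1574, 1799.6, 1977 and 2320.1 against 4046, 4119, 3637 and 4086, a log2 difference of -1.06 (SE 0.25, unadjusted p = 0.00143), while its 4 other probe sets read between -0.28 and 0.23. PTBP1, a repressor of splicing, gave 866, 930, 1098 and 1284 against 2318, 2484, 1829.5 and 2475, a difference of -1.13 (SE 0.26, unadjusted p = 0.00149), while the others read 0.16 and 0.52. TCF7L2, a transcription factor of the Wnt pathway that is abundant in thalamic neurons, gave 6634, 2755, 7091 and 3686 against 9384, 7319.8, 14854 and 7761, a difference of -1.01 (SE 0.25, unadjusted p = 0.0022). Of its 5 other probe sets 1 read -1.10 and the rest 0.03 to 0.43. For these genes the values describe single probe sets and not the gene as a whole. Why the probe sets of a gene disagree was not tested.

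The alpha globin gene HBA, whose product carries oxygen in red cells, gave 678, 622, 400.2 and 423 in deprived and 2918, 1665, 811 and 878 in nondeprived layers. The groups did not overlap, with a log2 difference of -1.40 (SE 0.30, unadjusted p = 7.46e-04). The beta globin HBB had the other sign (0.98, SE 0.48, unadjusted p = 0.0689, higher in 3 of 4 LGNs). Its signals were low, at 136 to 199 in deprived and 46.3 to 140 in nondeprived layers. ALAS2, the erythroid enzyme of haem synthesis, read -0.31 (SE 0.47).

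**Figure D2:**
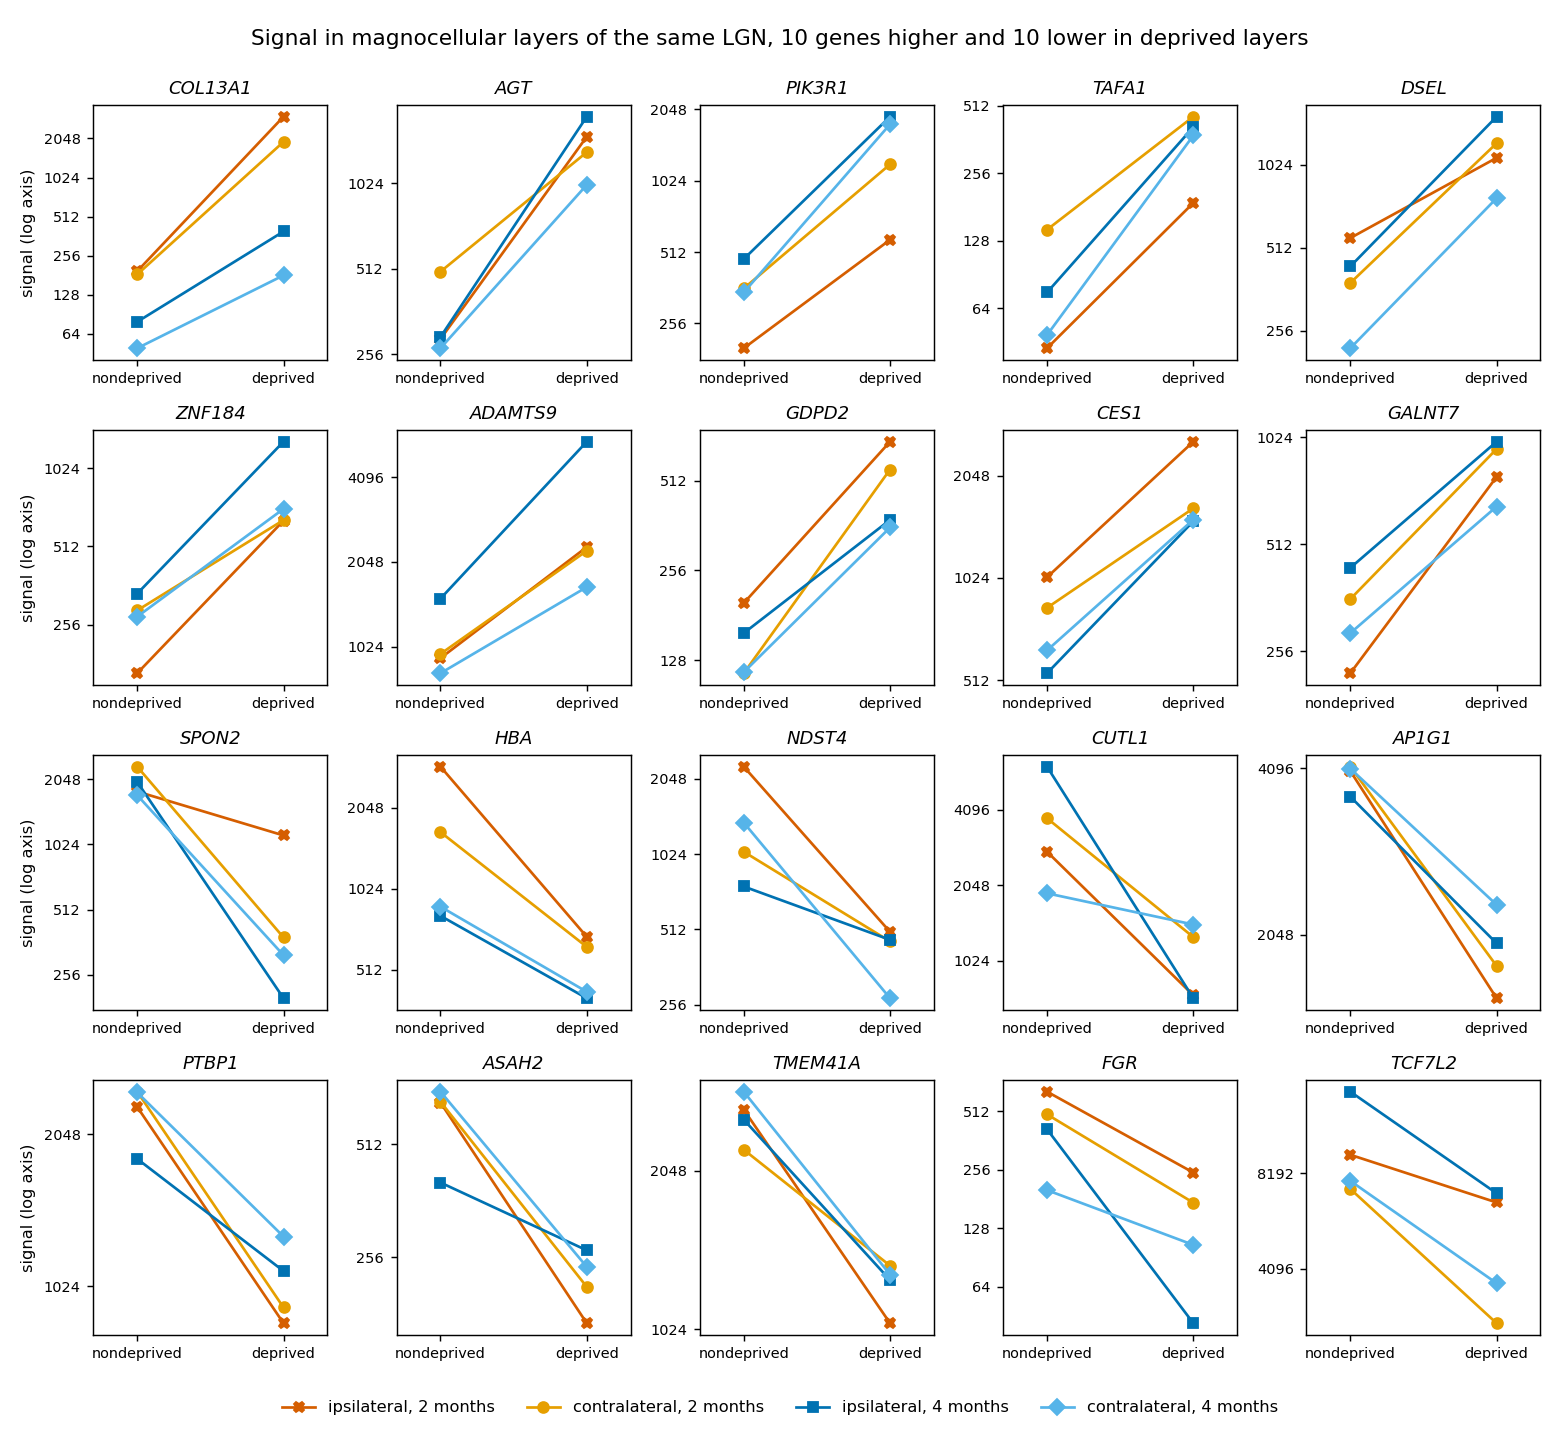
Signals of the named genes in deprived and nondeprived magnocellular layers on a log axis in powers of 2, 1 point for each LGN, with lines joining the 2 layers of an LGN. All lines point up for the 10 higher genes and down for the 10 lower genes, as the choice of the genes fixed, and the groups overlap for COL13A1 and FGR.

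The study named 32 probe sets as higher in deprived magnocellular layers. It chose them on these same arrays, so their direction here is no independent evidence, and 16 of them have only the study's name since the platform table gives no symbol. The study also reported quantitative PCR, which was higher for ALDH1A2, PIK3R1 and CREB5 of this list. By PCR NDST4 and WNT5A, which read lower here, were lower too. The study did not state the layer class of the PCR for these genes. In the deposited signals 30 of the 32 were higher in 4 of 4 LGNs (10.6% of all probe sets tested were), the exceptions being CENPC, a centromere protein, which read 1.00 and 0.63 without the array that stood apart, and ARVCF, a catenin of adherens junctions. Their median log2 difference was 1.48, beside 0.13 for all probe sets tested, 31 had an unadjusted p under 0.05, and 29 met the rule of at least 1.7-fold in 4 of 4 LGNs (28 in the 3 LGNs without the array that stood apart). All 32 stayed above an adjusted p of 0.05.

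Several members of that list are secreted or act on secreted factors. PAPPA, a protease that frees insulin-like growth factors from a binding protein, had 2 probe sets. The first gave 445, 700.3, 387 and 619 in deprived and 15.5, 52.2, 67.5 and 212 in nondeprived layers, and its log2 difference was 3.16 (SE 0.53, unadjusted p = 1.12e-04). The nondeprived signals were dim, 3 of 4 under 100, and the difference was 2.74 with signals under 50 set to 50. The other gave a difference of 2.08 (SE 0.42, unadjusted p = 4.88e-04), and neither overlapped between the groups. NTS, the peptide neurotensin, gave 273, 866, 713 and 830.2 in deprived layers, against 201, 130.2, 188 and 137 in nondeprived layers. These groups were apart, with a log2 difference of 1.93 (SE 0.42, unadjusted p = 9.16e-04). GREM1, which binds and blocks bone morphogenetic proteins, gave 835, 587, 715 and 479.8 against 227, 325, 194 and 264, a difference of 1.37 (SE 0.34, unadjusted p = 0.00212). LAMB1, a laminin chain of basement membranes, differed by 1.40 (SE 0.42) in the listed probe set and by 0.19 (SE 0.65) in its other one, higher there in 2 of 4 LGNs. SPON1, a secreted F-spondin, differed by 0.91 (SE 0.26) and VASH2, an enzyme that trims tubulin tails, by 1.61 (SE 0.41). The nondeprived signals of LAMB1 and VASH2 were dim, with means of 84.4 and 78.5. IGFL1, a small secreted protein, differed by 1.73 (SE 0.37), while its other, dimmer probe set read 0.74 (SE 0.90), higher in 2 of 4 LGNs.

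ALDH1A2, which makes retinoic acid from retinaldehyde, gave 180.1, 323, 110.1 and 134 in deprived and 9.78, 68.5, 41.5 and 30.3 in nondeprived layers. The log2 difference was 2.50 (SE 0.59, unadjusted p = 0.00151, adjusted p = 0.836). All 4 nondeprived signals were under 100, so its size is uncertain, and it was 1.66 with signals under 50 set to 50. Nuclear factors on the list included CREB5, an activating transcription factor, at 1.92, and RBM14, an RNA-binding coactivator, at 1.62. A brighter CREB5 probe set, not on the list, read 0.48 (SE 0.26, unadjusted p = 0.0924), and 0.05 in parvocellular layers. The listed CREB5 probe set was called higher in parvocellular layers, by 0.82 (SE 0.15, limma adjusted p = 0.011). CIRBP, an RNA-binding protein induced by cold, read 0.83, with its 3 other probe sets between 0.24 and 2.97. PTBP2, the splicing regulator that takes the place of PTBP1 in neurons, gave 814, 629, 910.1 and 469.7 against 159, 178, 376 and 176, a difference of 1.71 (SE 0.33, unadjusted p = 3.35e-04). Its groups were apart. The lowest differences of the list were 0.73 for SUN1, which links the nuclear envelope to the cytoskeleton, and 0.75 for ARVCF (0.48 without the array that stood apart). The other SUN1 probe sets read -0.40 and 0.52, and the other of ARVCF 1.23.

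**Figure D3:**
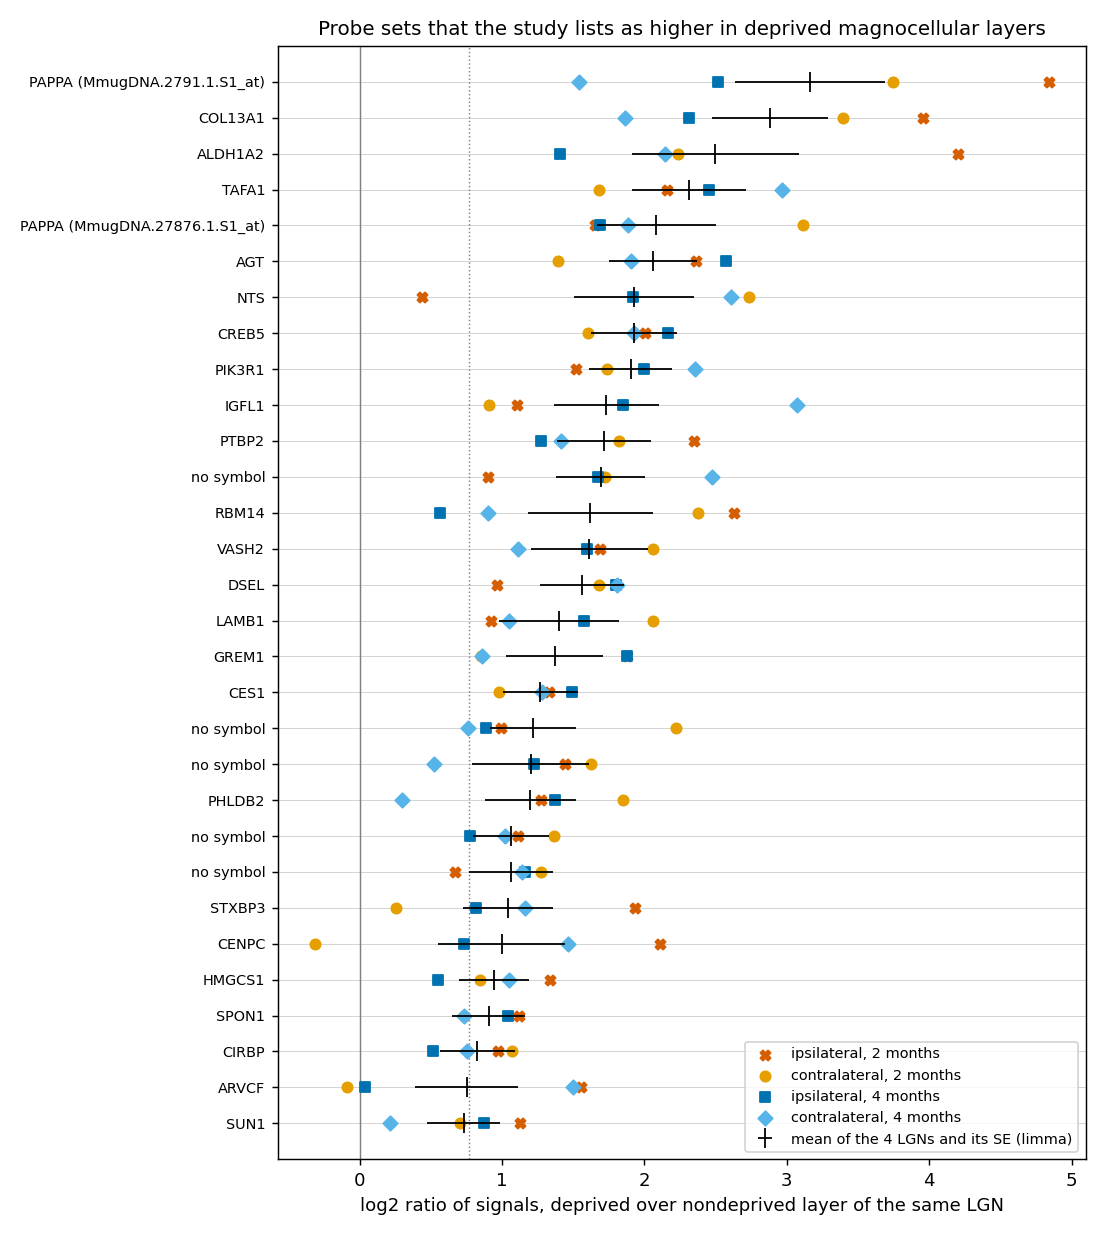
Log2 ratio of deprived over nondeprived signal for the probe sets that the study listed as higher and that are reported here, with 1 point for each of the 4 LGNs, a cross at their mean with its SE from limma, and dotted and solid lines at 1.7-fold and at no difference. The points of all 4 LGNs lie right of 0 for each probe set shown but CENPC and ARVCF.

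The smallest p of all fell on a probe set with no gene symbol in the platform table, MmugDNA.38772.1.S1_at, which was singled out after its values were seen. It gave 1228, 1401, 923 and 704 in deprived and 203, 202, 186 and 116 in nondeprived layers, so the groups were far apart in each LGN. The log2 difference was 2.58 (SE 0.30, unadjusted p = 4.75e-06, adjusted p = 0.179), and in the parvocellular layers it was 2.28 (SE 0.28, adjusted p = 0.00172).

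The time course was compared as a difference of differences, and the contrast is also one between 2 animals and 2 methods of deprivation. No probe set of 37623 differed between 4 and 2 months at an adjusted p of 0.05 in limma (0% called; 107 and 360 were more and less positive at 4 months at an unadjusted p under 0.05, and the smallest adjusted p was 1.00). Among the named genes COL13A1 had log2 ratios of 3.95 and 3.39 at 2 months and of 2.31 and 1.86 at 4 months. The difference, 4 minus 2 months, was -1.59 (SE 0.75). SPON2 had ratios of -0.67 and -2.62 at 2 months and of -3.32 and -2.45 at 4 months, a difference of -1.24 (SE 0.78). AGT, PIK3R1 and ZNF184 differed by 0.36, 0.55 and 0.11.

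The same eye's deprivation reached the parvocellular layers 3 to 6 of these LGNs, where 220 probe sets were called higher (0.585% of those tested) and 145 lower (0.385%) in limma over 16 arrays. Those probe sets were chosen on parvocellular arrays, so their values in the magnocellular arrays are a reading in samples that the choice did not use, although in the same animals. Of the 220, 203 (92.3%) were higher in the deprived magnocellular layers too, against 60.1% of all probe sets tested, and 99 (45%) were so in 4 of 4 LGNs, against 10.6%. Of the 145, 140 (96.6%) were lower, against 39.9% of all, and 77 (53.1%) in 4 of 4 LGNs, against 4.82%. Without the array that stood apart 204 (92.7%, against 54.2% of all) and 135 (93.1%, against 45.8%) kept those directions. Their median log2 differences in magnocellular layers were 0.57 and -0.52, beside 0.68 and -0.61 in the parvocellular layers that chose them.

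Some of the named genes belonged to this common set. TAFA1 differed in the parvocellular layers by 2.77 (SE 0.52, adjusted p = 0.0144) and PIK3R1 by 1.30 (SE 0.17, adjusted p = 0.00213), and AGT, DSEL, GDPD2, CES1 and COL13A1 were called there too, by 0.83, 0.95, 0.97, 0.65 and 0.63. ASAH2 fell by 2.13 on the log2 scale and FGR by 0.98 in deprived parvocellular layers. In all, 7 of the 10 higher and 2 of the 10 lower genes were called in the same direction in parvocellular layers. Of the 32 probe sets in the study's list 17 were called higher there, and 31 had a positive difference. ALDH1A2 was among them, with 3.80 (SE 0.51, adjusted p = 0.00223), its mean nondeprived signal there being 97.6.

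The difference between the layer classes was tested for every probe set, as the magnocellular minus the parvocellular log2 difference. One of 37623 passed (0.00266%), COL13A1, which differed by 2.88 in magnocellular and by 0.63 in parvocellular layers. The class difference was 2.25 (SE 0.33, unadjusted p = 6.44e-07, adjusted p = 0.0242), and without the array that stood apart it was 1.89 (adjusted p = 0.194). SPON2 was lower in deprived magnocellular layers and read 0.26 (SE 0.34, adjusted p = 0.853) in parvocellular ones, with a class difference of -2.53 (SE 0.57, unadjusted p = 2.29e-04, adjusted p = 0.426). ZNF184, ADAMTS9 and GALNT7 read -0.24, 0.13 and 0.11 in parvocellular layers with adjusted p-values of 0.8, 0.891 and 0.918. Their class differences of 1.85, 1.22 and 1.29 had adjusted p-values of 0.426, 0.53 and 0.571, so none but COL13A1 was shown to differ between the classes. As a level, AGT read lower in magnocellular than in parvocellular layers in 4 of 4 LGNs (log2 difference -2.44).

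**Figure D4:**
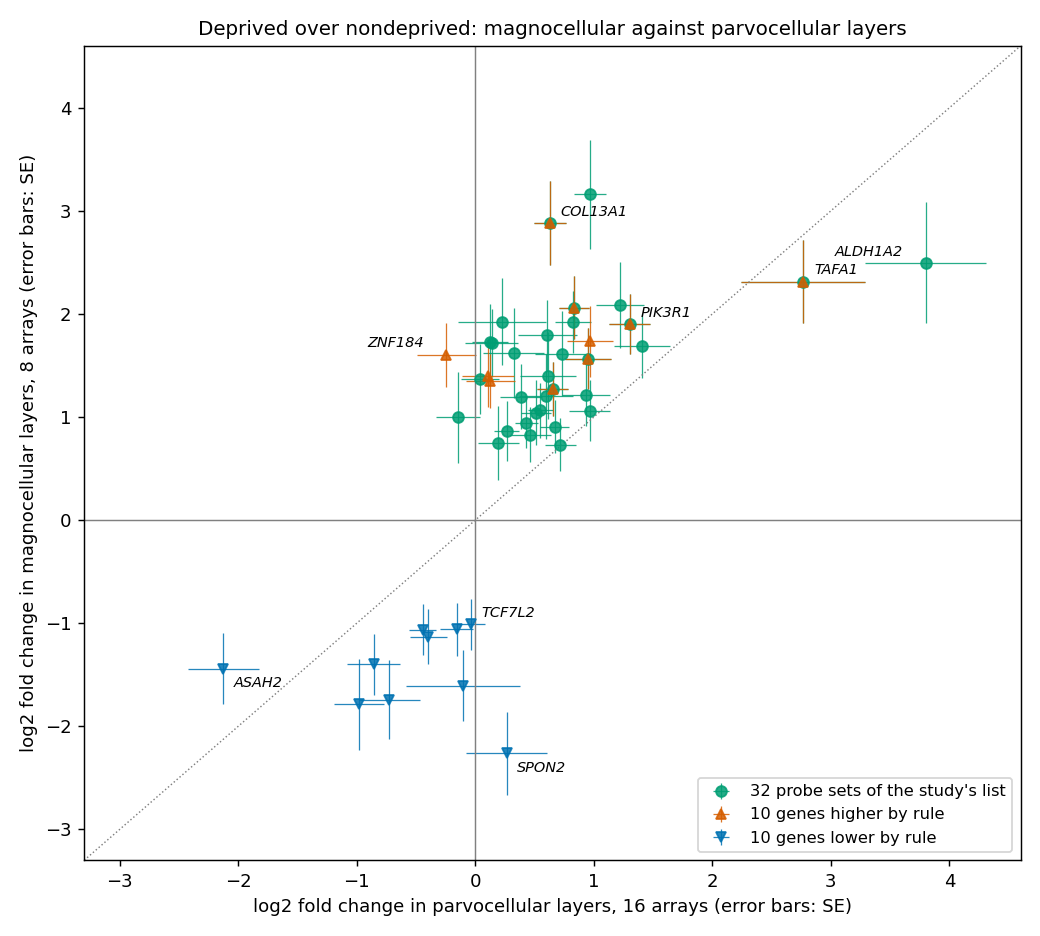
Log2 difference between deprived and nondeprived layers in the magnocellular layers (y axis, 8 arrays) against that in the parvocellular layers (x axis, 16 arrays), with bars for the SE, for the 32 probe sets of the study's list and the 10 named genes in each direction. Of the study's list 31 lie right of 0 on the x axis, COL13A1 lies far above the dotted line of equal differences (2.88 against 0.63), and SPON2 is the 1 of the 10 lower genes with a positive value in parvocellular layers.

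Gene groups were described by counts over genes with 1 symbol, 1 probe set for each gene. Among all 12107 such genes 54.7% were higher in deprived magnocellular layers, with a median log2 difference of 0.05, 3.36% were higher and 2.36% lower at an unadjusted p under 0.05, and 10% were higher and 6.86% lower in 4 of 4 LGNs. No member of any list passed an adjusted p of 0.05. Values below are therefore counts and medians of lists beside those of all genes. Scaling each array to the same median lowered the median of every list by the same amount. It also moved the median of all probe sets tested from 0.13 to -0.11, so a list median near 0 under that scaling is not one at the level of all probe sets.

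Of 18 measured genes of cholesterol synthesis and uptake 16 read higher in the deprived magnocellular layers, with a median log2 difference of 0.38 (0.43 and 14 of 18 in the 3 LGNs without the array that stood apart). At an unadjusted p under 0.05, 4 were higher and 0 lower. CYP51A1, which removes a methyl group from lanosterol, gave 2335, 3202, 4324 and 2560.1 in deprived and 1678, 1324, 1665 and 1642 in nondeprived layers, a difference of 0.94 (SE 0.27, unadjusted p = 0.00545). INSIG1, which holds the sterol sensor in the endoplasmic reticulum, gave 3023, 4607, 4849.8 and 5993 against 1868, 2261, 2480.1 and 2924, a difference of 0.93 (SE 0.24, unadjusted p = 0.0028). SQLE, squalene epoxidase, gave 2458, 2989, 1911 and 2819 against 1211, 1717, 1666 and 1653, with 0.70 (SE 0.26, unadjusted p = 0.0226). The groups did not overlap for these 3 genes, which were picked by their p, and the same held with the deprived layers higher for 2.62%, and lower for 2.11%, of all genes with 1 symbol. HSD17B7, a later enzyme, read 0.65 (SE 0.29, unadjusted p = 0.0486), higher in 3 of 4 LGNs. The medians of the list were 0.72, 0.16, 0.05 and 0.64 in the 4 LGNs, 0.14 when each array was scaled to the same median, and 0.11 in parvocellular layers, where no member was called.

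Oxidative phosphorylation, by which mitochondria make ATP, had 51 measured genes, of which 43 read lower in deprived layers (41 without the array that stood apart). The median was -0.24 (-0.12 over all probe sets of a gene, and -0.48 with arrays at the same median). The medians of the 4 LGNs were -0.20, -0.62, -0.30 and 0.16, so the contralateral LGN at 4 months had the other sign. At an unadjusted p under 0.05, 5 were lower and 0 higher, and 10 were lower in 4 of 4 LGNs. SDHC, a subunit of succinate dehydrogenase, gave 483, 839, 603 and 1163 in deprived and 826, 1924, 1227 and 1362 in nondeprived layers, with a difference of -0.81 (SE 0.28, unadjusted p = 0.017). NDUFA9 of complex I read -0.95 (SE 0.38) and -0.46 without the array that stood apart, ATP5F1C of the ATP synthase -0.63 (SE 0.27) and UQCRFS1, the iron-sulfur subunit of complex III, -0.60 (SE 0.26). SDHC and UQCRFS1 were lower in each LGN. Glycolysis leaned the same way, with 9 of 12 genes lower and a median of -0.36 (-0.60 with arrays at the same median). Its median in the contralateral LGN at 4 months again had the other sign, 0.09. Among its lower genes were PKM, pyruvate kinase, at -0.70 (SE 0.31) and PFKP, phosphofructokinase, at -0.57 (SE 0.26).

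Genes of synaptic vesicles and transmitter release were lower in 9 of 12 cases, with a median of -0.32 (-0.56 with arrays at the same median). The medians of the 4 LGNs were -0.07, -0.32, -0.83 and 0.11. VAMP1, the synaptobrevin of fast synapses, gave 1072, 1379, 849.8 and 2016 in deprived and 1907, 2151, 2825 and 2688 in nondeprived layers. It was lower in each LGN, at -0.91 (SE 0.29, unadjusted p = 0.0104), and in parvocellular layers it read -0.85 (SE 0.15, adjusted p = 0.0101). SYT4, a synaptotagmin of secretory vesicles, went the other way, with 12176, 13217, 11315 and 11091 against 5716, 7496, 8025 and 9861. Its groups did not overlap, at 0.64 (SE 0.25, unadjusted p = 0.0282), and its parvocellular difference was 0.53 (SE 0.11, adjusted p = 0.0251). Of 10 cytoskeletal genes 7 were lower, with medians of 0.72, -0.63, -0.33 and 0.17 in the 4 LGNs. STMN4, a neuronal stathmin that binds tubulin, was higher in 4 of 4 LGNs by 1.04 (SE 0.28, unadjusted p = 0.00379) and in parvocellular layers by 0.76 (SE 0.12, adjusted p = 0.00437). TUBB, a beta tubulin, read -0.77 (SE 0.28) in magnocellular layers.

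The 16 measured sodium and potassium channel genes had no common direction, with 9 higher, and 4 without the array that stood apart. SCN3A, a sodium channel that is high in early life, gave 587, 956, 933 and 725 in deprived and 526, 228, 499 and 453 in nondeprived layers, with 0.95 (SE 0.35, unadjusted p = 0.0222). SCN3B, a sodium channel beta subunit, gave 401, 398, 370.4 and 327 against 151, 294, 295 and 97.3, with 0.98 (SE 0.38, unadjusted p = 0.0253) and a parvocellular difference of 1.21 (SE 0.19, adjusted p = 0.00586). Both were apart between the groups. Of 6 glutamate receptor genes 2 were higher. Their median over genes was -0.10 while the medians within the 4 LGNs were all positive (0.15, 0.49, 0.14 and 0.50), and GRIK1, a kainate receptor subunit, read 0.98 (SE 0.34, unadjusted p = 0.0154). Of 7 genes of GABA synthesis and receptors 5 were higher, with a median of 0.07 (-0.18 with arrays at the same median). GAD1, which makes GABA, read 0.39 (SE 0.24, unadjusted p = 0.138), and GABRA3, a receptor subunit, -0.73 (SE 0.40, unadjusted p = 0.1). The T-type channel CACNA1I and the pacemaker channel HCN3, the only measured genes of their list, read 0.46 and 0.25, and 0.24 and 0.0033 without the array that stood apart. Of 16 genes of calcium binding and calmodulin signalling 8 were higher, with S100A6, a small calcium-binding protein, at 1.17 (SE 0.44) and CALM3, a calmodulin gene, at -0.76 (SE 0.28).

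A list of activity-regulated transcription and plasticity genes was read as a group, and not each member is known to follow activity. Of its 22 measured genes 17 were higher in the deprived layers, with a median of 0.24, which was -0.0045 when each array was scaled to the same median. KLF6, a zinc finger factor, read 0.92 (SE 0.33, unadjusted p = 0.0197) in magnocellular and 0.79 (SE 0.14, adjusted p = 0.00867) in parvocellular layers. NR4A1, an orphan nuclear receptor that is induced at once by activity, gave 423, 316, 137 and 125 in deprived and 177, 157, 78.5 and 85.6 in nondeprived layers, with 0.90 (SE 0.38, unadjusted p = 0.0372). NR4A1 was higher in each LGN. JUND, a subunit of the AP-1 factor, read 2.18 (SE 0.94, unadjusted p = 0.0417), higher in 3 of 4 LGNs. Its signals were 142, 15.8, 28.5 and 178 in deprived and 30.4, 17.0, 6.49 and 7.98 in nondeprived layers. Most of these lie near the array's floor, so the size is uncertain. Neuropeptides had 6 of 11 genes higher. CRHBP, which binds and neutralises corticotropin-releasing hormone, gave 308, 489, 501 and 446 in deprived and 763, 632, 1041 and 1327 in nondeprived layers. It was apart between the groups, at -1.08 (SE 0.31, unadjusted p = 0.00554), and lower too in parvocellular layers, at -1.40 (SE 0.24, adjusted p = 0.00982). The 1 probe set that stood for CRH itself read 0.54 (SE 0.32), and 0.20 without the array that stood apart. Its log2 ratios were 1.56, 0.56, 0.09 and -0.04, and its parvocellular difference was 0.45 (SE 0.11). The study reported the opposite, CRH lower in deprived parvocellular layers by array and quantitative PCR, and in deprived layers by in situ hybridisation. The reason for this disagreement was not tested.

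Of 25 genes of the extracellular matrix and perineuronal nets 18 were higher in deprived layers, with a median of 0.40 (0.21 and 19 genes without the array that stood apart, 0.33 after quantile normalisation and 0.16 with arrays at the same median). Besides COL13A1, SPON2 and LAMB1, LAMA2, the laminin chain of muscle and vessel basement membranes, gave 584, 373, 425 and 409 in deprived and 244, 317, 72.1 and 198 in nondeprived layers, with 1.28 (SE 0.41, unadjusted p = 0.0107). Axon guidance had 20 of 27 genes higher and a median of 0.20 (-0.04 when each array was scaled to the same median). NTN4, a netrin that binds laminin, gave 85.4, 214, 211 and 293 against 46.6, 64.6, 30.8 and 55.9. The difference was 1.94 (SE 0.50, unadjusted p = 0.00263), with all 4 nondeprived signals under 100. NRP1, a receptor of semaphorins, read 0.98 (SE 0.48, unadjusted p = 0.0698), higher in each LGN. Of 13 genes of retinoic acid synthesis and its receptors 10 were higher, with a median of 0.46 (0.33 without the array that stood apart, 0.23 after quantile normalisation and 0.22 with arrays at the same median). After ALDH1A2 came STRA6, which carries retinol into cells, at 1.46 (SE 0.60, unadjusted p = 0.0333), and RARB, a receptor that retinoic acid induces, at 0.60 (SE 0.37, unadjusted p = 0.136), and 1.00 without the array that stood apart.

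Of 19 genes of insulin-like growth factor and PI3 kinase signalling 8 were higher (median -0.09), with PIK3R1 represented by its brightest probe set at 0.64 (0.38 without the array that stood apart). Of 5 neurotrophin and receptor genes 4 were higher (2 without the array that stood apart, with medians of 0.23 and -0.11), and NGFR, the low-affinity neurotrophin receptor, read 1.20 (SE 0.57, unadjusted p = 0.0603), higher in each LGN. The NGFR signals were dim, at 56.2 to 104 in deprived and 24.1 to 52.2 in nondeprived layers, so the size is uncertain. Wnt and bone morphogenetic protein signalling had 22 of 29 genes higher (median 0.22, and -0.02 with arrays at the same median), and its lowest p belonged to a lower gene, the ligand WNT5A, at -1.07 (SE 0.31, unadjusted p = 0.0059). Of 15 heat shock and folding genes 6 were higher, with the chaperone HSPB8 at -0.91 (SE 0.28, unadjusted p = 0.00906) and its partner BAG3 at -0.56 (SE 0.27, unadjusted p = 0.0604). Of 14 apoptosis regulators 11 were higher (median 0.13, and -0.11 with arrays at the same median), and none had an unadjusted p under 0.05, the smallest being that of BBC3, a promoter of cell death, at 0.94 (SE 0.43, unadjusted p = 0.0545).

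**Figure D5:**
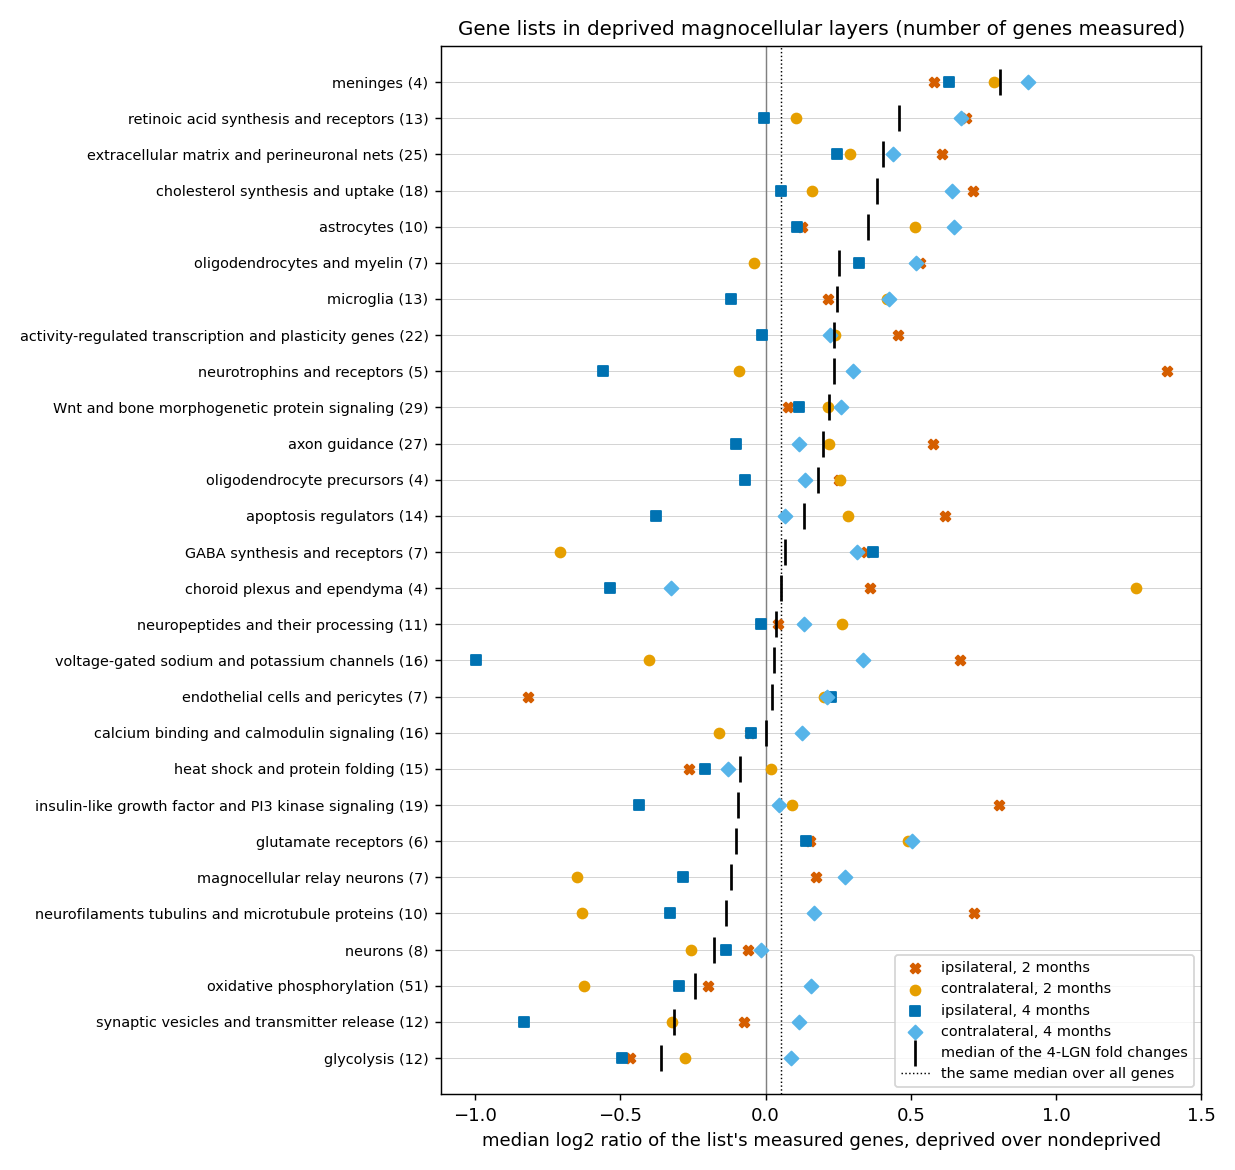
Median log2 ratio of deprived over nondeprived magnocellular signal for each gene list, with 1 point for each LGN, a bar at the median of the members' differences, and a dotted line at that median over all genes. The 4 LGNs spread on both sides of 0 for most lists, and oxidative phosphorylation lies between -0.62 and 0.16.

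Markers of other cell types were read in the same way. Of 10 measured astrocyte genes 7 were higher in deprived magnocellular layers (median 0.35, and 0.11 with arrays at the same median), with summed signals of 73934 to 107787 against 59188 to 91569. GFAP, the intermediate filament of astrocytes, gave 5038, 12236, 5594 and 9495 in deprived and 5069.7, 4503, 5115 and 2939.8 in nondeprived layers. It was higher in 3 of 4 LGNs, by 0.81 (SE 0.33, unadjusted p = 0.0323), and in parvocellular layers by 1.07 (SE 0.21, adjusted p = 0.0184). AGT is itself on that list, and the glutamate transporter SLC1A2 read -0.27 (SE 0.59). The part of astrocyte content in the AGT difference was not tested.

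All 4 measured meningeal genes were higher, with a median of 0.81 and their summed signals, 1333 to 1995 where deprived against 914 to 1108 where not, did not overlap. DCN, the proteoglycan decorin, gave 592, 1013, 961 and 861 against 550.4, 491, 405 and 425, with 0.85 (SE 0.31, unadjusted p = 0.0191). LUM, lumican, gave 300.3, 677, 550.3 and 409 against 271, 261, 277 and 263, with 0.79 (SE 0.34, unadjusted p = 0.0398). Both were apart between the groups, and the fibrillar collagens COL1A2 and COL3A1 read 0.83 (SE 0.39) and 0.30 (SE 0.44). COL13A1, LAMA2, LAMB1 and ALDH1A2 were higher in the same layers, and the part of meningeal tissue in their differences was not tested.

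Of 8 general neuronal genes 7 read lower in deprived layers (median -0.18), with summed signals of 118160 to 151242 against 127942 to 155621, and none had an unadjusted p under 0.05. The 3 measured interneuron genes, GAD1, GAD2 and the peptide NPY, were each higher in 3 of 4 LGNs. Their summed signals, 18517 to 24568 against 14416 to 16781, were nearly all GAD1, whose own groups overlapped. Oligodendrocyte genes were higher in 6 of 7 cases (median 0.25, and 0.01 with arrays at the same median), microglial genes in 9 of 13 (median 0.25, and 0.0054 with arrays at the same median) and endothelial and pericyte genes in 4 of 7 (median 0.02, and -0.12 after quantile normalisation). Of 4 genes of oligodendrocyte precursors 2 were higher and 2 lower (median 0.18, and -0.06 with arrays at the same median). VCAN, the proteoglycan versican, read 0.82 (SE 0.31, unadjusted p = 0.0232), and GPR17, CSPG4 and OLIG2 read 0.37, -0.16 and -0.0063. FOXP2, a marker of parvocellular cells, was higher in deprived magnocellular layers in 4 of 4 LGNs (1.79, SE 0.65, unadjusted p = 0.0199, and 1.08 with unadjusted p = 0.111 without the array that stood apart) at signals of 72.2 to 189 against 12.5 to 110, which lie about the array's floor. The choroid plexus genes KCNJ13, FOLR1 and CLIC6 had mean magnocellular signals of 183, 70.3 and 54.9, and CAMK2A, the single measured koniocellular marker, one of 43.2.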

How the data were processed

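Layers of 4 LGNs were profiled on the Rhesus Macaque Genome Array, and the authors deposited 1 signal intensity for each of 52865 probe sets and 24 arrays, made with GCOS from perfect match and mismatch probes. The deposited intensities are linear. Each array had been scaled so that its mean without the outer 2% at each end was 500.04, so levels are relative within an array. The number of arrays, and not a read depth, limits the precision.

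Groups came from the array titles. The 99 control probe sets were left out, and 37623 were tested, those that reached 100 on any of the 24 arrays. Signals under 1 were set to 1, and log2 values were fitted with limma 3.58.1 (lmFit, eBayes with a trend) in R 4.3.3, with statmod 1.5.0 for random blocks, and Benjamini-Hochberg adjustment over all probe sets at 0.05. The LGN was a fixed block, since the labels give the side and the duration and each LGN held 1 deprived and 1 nondeprived magnocellular array. The parvocellular fit used the other 16 arrays, with the LGN as its block, and the class difference and the shared spread used all 24. The rule of size was a mean ratio of at least 1.7-fold in 1 direction in 4 of 4 LGNs. The named genes were the 10 in each direction with the smallest unadjusted p among probe sets with 1 symbol, 1 direction in 4 of 4 LGNs and a mean signal of 100 or more in the higher group, since none passed the threshold. To these were added the probe sets that the study lists as higher and up to 4 measured members of each of 33 gene lists, by the smallest p.

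Names came from GEO's platform annotation, which gave 1 symbol to 24956 probe sets, several to 361 and none to 27449. For a gene with several probe sets the one with the highest mean signal stood for it in lists. Scripts were tested on simulated data. The members, the gene lists and the tests were chosen with earlier results of these data known. The alternatives of normalisation, floor, filter, block and left-out LGN were listed first, and those that combine quantile normalisation with a filter, or that repeat the class difference, the parvocellular sets and the list counts without 1 array, were chosen after seeing the data. The study's list of lower magnocellular probe sets was not used here. Some members of the study's list of higher probe sets entered the counts but are not reported here by name.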

Additional observations from a re-analysis of the deposited data

Results flagged for a closer look

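For the members of the lists and named sets, 202 groups of 4 arrays were looked at for a lone value far from the rest, and 16 had a gap, divided by the range of the group, past Dixon's critical value. Chance alone gives about 1 in 20 such groups.

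The GAPDH 3′ to 5′ ratio set apart the deprived ipsilateral layer 2 at 2 months among the deprived arrays (gap over range 0.894, ratio 50.8) and the contralateral layer 2 at 2 months among the nondeprived arrays (0.883, ratio 14.3). The mean correlation with the other arrays set apart the same deprived array (0.840).

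Among the nondeprived layers, the contralateral LGN at 2 months lay far above the others for AGT (0.853, signal 500) and far from the others for CYP51A1 (0.907, signal 1324) and RARB (0.870, signal 250). The ipsilateral LGN at 4 months did so for AP1G1 (0.855, signal 3637), ASAH2 (0.880, signal 405) and PTBP2 (0.869, signal 376), the ipsilateral LGN at 2 months for SQLE (0.891, signal 1211), and the contralateral LGN at 4 months for MmugDNA.38772.1.S1_at (0.849, signal 116).

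Among the deprived layers, the ipsilateral LGN at 2 months lay far from the others for CES1 (0.837, signal 2584), NTS (0.832, signal 273) and MmugDNA.9692.1.S1_at (0.858, signal 2365), of which the array is the one with the high GAPDH ratio. ZNF184 (0.851, signal 1295) was highest in the ipsilateral LGN at 4 months, and NDST4 (0.856, signal 271) lowest in the contralateral LGN at 4 months.

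COL13A1 was the 1 probe set whose deprivation difference differed between the layer classes, by 2.25 on the log2 scale (limma, SE 0.33, adjusted p = 0.0242), and by 1.89 (adjusted p = 0.194) without the array that stood apart.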

How the results depend on the processing

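The 20 named genes, the probe sets of the study's list and the probe sets without a symbol that were singled out kept their direction in every one of the 1000 values computed under other settings. For most values this was fixed in advance and is no support. All but CENPC and ARVCF had 1 direction in 4 of 4 LGNs, most of them by choice. Leaving out an LGN or changing the filter or trend could therefore not reverse them. Counts of calls in the 8-array limma test were 0 higher and 0 lower, and they became 1 and 1 when the GAPDH ratio was added as a covariate (MmugDNA.38772.1.S1_at and SPON2), 248 and 147 with the spread shared over 24 arrays, 1 higher (COL13A1) in the 2-month animal alone, 27 and 19 in the 4-month animal alone, and 0 to 7 higher and 0 to 0 lower when 1 LGN was left out, the 7 without the contralateral LGN at 2 months. The fits of a single animal hold only the 2 pairs of layers of 1 animal, so their spread is estimated from very few arrays. It rests largely on what limma borrows from other probe sets, so these counts are no evidence of an effect at either duration. With the LGN as a random block and without the array that stood apart, 1 was lower (SPON2, adjusted p = 0.0187). The pairing came from the design, each LGN holding both layers. With no replicate block the 8-array counts stayed at 0 and 0 (smallest adjusted p = 0.180), and without the array that stood apart 1 was lower with no replicate block and 1 with a random replicate block.

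The rule of size gave 2095 higher and 487 lower probe sets. It gave 1243 and 943 after quantile normalisation, 1052 and 1465 with arrays scaled to the same median, 1049 and 324 with signals under 50 set to 50, 3276 and 914 with no filter, 948 and 313 with a mean signal of 100 or more, and 565 higher with quantile normalisation and that filter. With 1 LGN left out it gave 2468 to 4205 higher and 709 to 1397 lower, and in single animals 6315 and 1810 at 2 months and 4021 and 2444 at 4 months. The cause was not tested, except that fewer LGNs make the rule easier to meet.

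The 1 call for a difference between the layer classes became 0 after quantile normalisation, with arrays at the same median, with 16 added to the signal, without a trend, in the 4-month animal on its own, and without the array that stood apart, and was 0 to 1 when 1 LGN was left out. Of list medians 19 of 132 moved beyond their spread, among them that of the glutamate receptors, which was 0.26 without the ipsilateral LGN at 2 months, and that of the meninges, which was 0.48 over all probe sets of a gene. Signals near the floor of the array, where probe sets with a mean under 100 lie, limit what can be said of dim genes.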
